A study of Mus musculus with 5 samples.

Results

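Arg1 positive macrophages were described in mouse cortex after traumatic brain injury (TBI), from single-cell RNA sequencing of 5 libraries. They were chosen barcode by barcode, a barcode standing for 1 droplet and in most cases for 1 cell. A barcode was used when it held 500 or more unique molecular identifiers (UMIs, which count RNA molecules) from 200 or more genes, with no more than 20% of them mitochondrial. It was called an Arg1 barcode when it also held at least 2 UMIs of Arg1, at least 1 UMI of Lyz2 and 0 UMIs of Tmem119, P2ry12 and Cd3e. The rule found 346 of the 58411 barcodes used (0.592%). The libraries were 1 from sham-operated mice and 1 each from the injury site at 1, 3, 7 and 14 days after TBI, all from C57BL/6J mice with no transgene or drug named. All were dissociated with papain and DNase and cleared on Percoll. The number and age of the mice behind each library are not given in the sources used here. Arg1 barcodes were set against barcodes of the same library that held Lyz2 and Ccr2 but no Arg1, called comparison barcodes below. The study's title concerns ALKBH5, SOCS3 and RNA methylation in microglia and macrophages after brain injury.

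Arginase 1, the product of Arg1, splits arginine into ornithine and urea. It thereby competes with nitric oxide synthase for arginine and supplies ornithine for polyamine and proline synthesis. In mouse macrophages Arg1 is a classical marker of alternative activation, and it is also induced in macrophages that engulf dead cells. After brain injury, monocytes that carry the chemokine receptor CCR2 enter the tissue from the blood, become macrophages and take up dead cells, red cells and myelin. The genes of the rule read as follows. Lyz2 encodes lysozyme of myeloid cells, Tmem119 and P2ry12 mark microglia, and Cd3e marks T cells.

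Each group was 1 library, so no difference between libraries or populations was tested, and intervals are exact 95% intervals that cover counting error only. UMIs were summed over the barcodes of a population and given as CPM, counts scaled to a sum of 1000000. The libraries held 11279455 UMIs in sham, 26705021 at day 1, 41090570 at day 3, 110205126 at day 7 and 129161094 at day 14. The median barcode held 774, 1757, 3258, 7279 and 8740 UMIs in the same order, so barcodes of later libraries held more UMIs. The number of UMIs per barcode is called depth below. Arg1 barcodes summed to 47485 UMIs at day 1, 1925708 at day 3 and 595513 at day 14. Comparison barcodes summed to 32270, 940334 and 20159758 UMIs on those days. Free RNA was gauged in oligodendrocyte barcodes, which should lack Arg1. They held at least 3 genes of the oligodendrocyte marker list and 0 UMIs of Lyz2. The condition on Lyz2 leaves out barcodes that caught free Lyz2 RNA, so free macrophage RNA may be understated in them. Of 468 such barcodes at day 3, with a median of 3229 UMIs, 0 held at least 2 Arg1 UMIs, so that the share may be as high as 0.785%. At least 1 Arg1 UMI was held by 2 of them (0.427%). A doublet caller marked 3 Arg1 barcodes at day 1, 10 at day 3 and 0 at day 7 and day 14. Among comparison barcodes it marked 1 of 14 at day 1, 13 of 170 at day 3 and 146 of 1648 at day 14. Of all barcodes used it marked 7.33%, 3.76% and 3.37% in the libraries of day 1, day 3 and day 14. All marked barcodes were kept. Pairs of libraries shared between 22 and 52 barcode sequences, but no sequence was shared between Arg1 barcodes of different libraries.

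Arg1 barcodes were concentrated at day 3. The sham library held 0 among 11525 barcodes, so that the share may be as high as 0.0320%. Day 1 held 18 of 12705 (0.142%, 95% interval 0.0840 to 0.224%), day 3 held 294 of 9877 (2.98%, 2.65 to 3.33%), day 7 held 1 of 12358 (0.00809%), and day 14 held 33 of 11946 (0.276%, 0.190 to 0.388%). Thus 85.0% of all Arg1 barcodes came from the day 3 library. The share at day 3 lay above those of the other libraries beyond counting error. As a share of all barcodes with Lyz2, Arg1 barcodes made up 1.39% at day 1, 8.05% at day 3, 0.0102% at day 7 and 0.336% at day 14. Depth differed between the libraries, and it bears both on Arg1 and on the genes that must be absent. With every barcode thinned to 1000 UMIs, Arg1 barcodes were 0.116% at day 1, 1.92% at day 3, 0.00878% at day 7 and 0.103% at day 14. Day 3 stood highest on both scales. Without the condition on Tmem119, P2ry12 and Cd3e, the shares were 0.173% at day 1, 4.22% at day 3, 0.0890% at day 7 and 1.11% at day 14. That condition removed more of the Arg1 signal late than early. Among barcodes with at least 2 Arg1 UMIs and Lyz2, it set aside 4 of 22 at day 1, 123 of 417 at day 3, 10 of 11 at day 7 and 100 of 133 at day 14.

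Arg1 (ENSMUSG00000019987, chr10:24915221-24927484, minus strand, GRCm38) was held at very unequal levels by the barcodes that passed. These values chose the barcodes and are given as a description. The median Arg1 barcode held 7.5 Arg1 UMIs at day 1, 9 at day 3 and 4 at day 14, and the highest held 41, 93 and 25. Scaled to 10000 UMIs per barcode, the medians were 30.4, 15.1 and 2.95. Per UMI, the day 1 barcodes therefore carried the most Arg1 and the day 14 barcodes the least, though the rule asks for 2 Arg1 UMIs at any depth and so admits lower scaled values in deeper barcodes. At day 3, 140 of 294 Arg1 barcodes held at least 10 Arg1 UMIs, and 35 held exactly 2. At day 14 the numbers were 5 and 10 of 33. Lyz2, also part of the rule, reached 5918 CPM at day 1, 7535 CPM at day 3 and 31195 CPM at day 14 in Arg1 barcodes. In comparison barcodes it reached 9049, 4389.9 and 6213 CPM. The single day 7 barcode held 1526 UMIs, of which 2 were Arg1, 26 Lyz2, 17 Lgals3 and 3 Gpnmb, and day 7 is left out from here on.

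**Figure D1:**
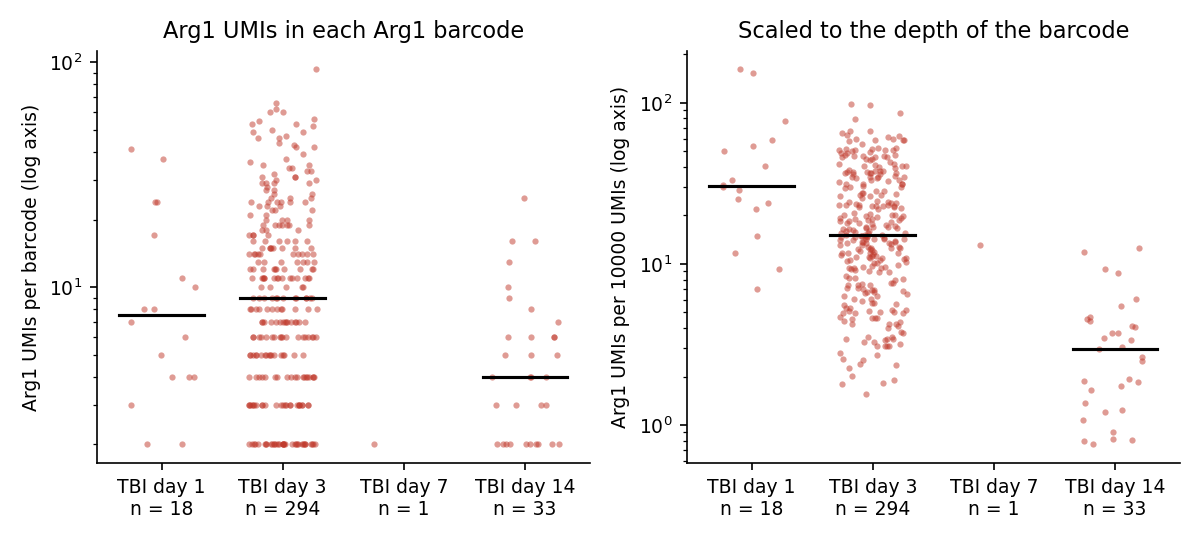
Arg1 UMIs in each Arg1 barcode at TBI day 1, 3, 7 and 14 (left, log axis) and the same values scaled to 10000 UMIs per barcode (right, log axis). Each point is 1 barcode and black bars are medians; the day 3 points spread from the rule's minimum of 2 UMIs to 93, and the scaled values at day 14 lie mostly below those at day 1 and day 3.

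The label of macrophages was checked against marker lists. All 17 macrophage identity genes were detected in the Arg1 barcodes of day 1, day 3 and day 14, and each of the 18, 294 and 33 barcodes held at least 3 of them. This list cannot tell macrophages from microglia. Microglia receptor barcodes, which hold Tmem119 and P2ry12 but no Arg1, carry these genes too, some at higher and some at lower levels. At day 3 C1qa reached 6572 CPM in them and 976 CPM in Arg1 barcodes, and Cd68 590 and 1136 CPM. Lgals3, which encodes a sugar-binding protein secreted by activated macrophages, was detected in 18 of 18 Arg1 barcodes at day 1, 291 of 294 at day 3 (99.0%) and 33 of 33 at day 14. Gpnmb, a membrane glycoprotein of lysosome-rich macrophages, was detected in 2 of 18 (11.1%), 227 of 294 (77.2%) and 30 of 33 (90.9%). Gpnmb therefore marked the day 3 and day 14 Arg1 barcodes but few of those at day 1. Ccr2, which the rule did not ask for in Arg1 barcodes, had a UMI in 61.1% of them at day 1, 11.6% at day 3 and 15.2% at day 14.

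Markers of other cells were present to different extents in the populations compared. At day 3, 3 or more genes of the microglia list were detected in 11.6% of Arg1 barcodes and 25.9% of comparison barcodes, with summed levels of 538 and 1133 CPM. The border macrophage list passed that mark in 65.0% of Arg1 barcodes and 15.9% of comparison barcodes, with 5391 and 584 CPM. Most of the sum in Arg1 barcodes was Pf4, which belongs to that list. The neutrophil list passed in 3.06% of Arg1 barcodes and 5.29% of comparison barcodes, and its genes Retnlg, Ly6g, Camp and Ngp were at 0 in both. The dendritic cell list passed in 0.340% of Arg1 barcodes and 3.53% of comparison barcodes, with 2163 and 3318 CPM. Of these sums 2119 and 3250 CPM were Cst3, which microglia barcodes held at 15269 CPM, while Flt3, Zbtb46, Xcr1, Clec9a and Cd209a held 0 to 1 UMI each in Arg1 barcodes and 0 to 6 in comparison barcodes. At day 14 comparison barcodes held far more lymphocyte RNA. The T and NK cell list passed in 0 of 33 Arg1 barcodes and in 53.5% of comparison barcodes, with 6.72 and 2137 CPM, and the dendritic cell list in 3.03% and 25.6%. The microglia list passed in 93.9% of Arg1 barcodes and 51.6% of comparison barcodes at day 14, although Tmem119 and P2ry12 were at 0 in the Arg1 barcodes by the rule. A filter that left out barcodes of both populations with 3 or more markers of another class kept 252 Arg1 and 139 comparison barcodes at day 3. At day 14 it kept only 10 of the 33 Arg1 barcodes, and 288 comparison barcodes. It gave 358 genes at least 2-fold higher and 586 lower at day 3, against 297 and 639 with all barcodes. At day 14 it gave 564 higher and 1291 lower, against 361 and 1628. Beyond this filter and the comparison barcodes with 0 UMIs of Tmem119, P2ry12 and Cd3e, the part of these markers in the differences below was not tested.

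At day 3 the Arg1 barcodes carried more RNA of lipid handling, lysosome and iron handling genes than the comparison barcodes, and less of antigen presentation, cell cycle and monocyte genes. Since both populations were split by Arg1 and Ccr2 in the same library, every difference between them is a description. A gene counted as measured when its mean over both populations was at least 10 CPM, and a difference was counted from 2-fold. Of 7253 measured genes, 297 (4.09%) were at least 2-fold higher in the 294 Arg1 barcodes and 639 (8.81%) at least 2-fold lower than in the 170 comparison barcodes. The median log2 ratio over all measured genes was -0.11. Scaling by trimmed means of M-values (TMM) instead of totals added 0.22 to every log2 ratio and gave 521 genes higher and 428 lower, so ratios near the 2-fold mark depend on the scaling.

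Genes of lipid uptake and storage were higher in Arg1 barcodes at day 3. Of 18 measured genes of the 20 listed, 11 were at least 2-fold higher and 0 lower, with a median log2 ratio of 1.28. Fabp5 (ENSMUSG00000027533, chr3:10012548-10016607, plus strand), a carrier of fatty acids inside the cell, reached 3925 CPM in Arg1 barcodes and 256 CPM in comparison barcodes, a log2 ratio of 3.94 (3.75 to 4.13). Gpnmb (ENSMUSG00000029816, chr6:49036546-49070929, plus strand) reached 1276 and 88.3 CPM (3.85, 3.54 to 4.19). Cd36, a scavenger receptor that takes up oxidised lipoproteins and fatty acids, reached 245 and 19.1 CPM (3.68, 3.00 to 4.44). These 3 genes were each more than 10-fold higher in Arg1 barcodes. Spp1 (ENSMUSG00000029304, chr5:104435118-104441050, plus strand), which encodes the secreted matrix protein osteopontin, reached 5372 CPM in Arg1 barcodes and 661 CPM in comparison barcodes (3.02, 2.90 to 3.14). Plin2, the coat protein of lipid droplets, reached 1557 and 553.0 CPM (1.49). Apoe, the lipid carrier apolipoprotein E, was among the most abundant transcripts, with 27607.0 CPM in Arg1 barcodes and 10344 CPM in comparison barcodes (1.42). Abca1, the cholesterol export pump, and Nceh1, a cholesteryl ester hydrolase, had log2 ratios of 1.20 and 1.37. Trem2, a lipid-sensing receptor, stayed under 2-fold, with 769.6 CPM in Arg1 barcodes and 402 CPM in comparison barcodes (0.94).

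Lysosomal genes followed the same direction. Of 17 measured genes of the 18 listed, 10 were at least 2-fold higher and 0 lower, with a median log2 ratio of 1.11. Ctsd and Ctsb, which encode the lysosomal proteases cathepsin D and cathepsin B, had log2 ratios of 1.96 (1.89 to 2.03) and 1.84. Ctsd reached 7291 CPM in Arg1 barcodes and 1873 CPM in comparison barcodes. Cd68, a lysosomal membrane glycoprotein of macrophages, reached 1136 and 399 CPM (1.51). Psap, the precursor of the saposins that help degrade sphingolipids, reached 4752 and 1674 CPM (1.51). Cd63, Ctsk, Ctsl, Hexa and Lgmn were also past 2-fold.

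Genes of heme and iron handling and of the oxidative stress response made up the other large group. Of 17 measured genes of the 19 listed, 10 were at least 2-fold higher in Arg1 barcodes and 0 lower, with a median log2 ratio of 1.21. Hmox1 (ENSMUSG00000005413, chr8:75093621-75100589, plus strand) encodes heme oxygenase 1, which breaks heme into iron, biliverdin and carbon monoxide. It reached 3649.6 CPM in Arg1 barcodes and 263 CPM in comparison barcodes, a log2 ratio of 3.80. Blvrb, a biliverdin reductase, had a log2 ratio of 2.08, and Slc48a1, which carries heme out of the lysosome, had one of 2.86. Fth1 and Ftl1, the heavy and light chains of the iron store ferritin, were among the most abundant transcripts, at 37054 and 23637 CPM in Arg1 barcodes and 14434 and 8027 CPM in comparison barcodes. Gclm, a subunit of the enzyme that starts glutathione synthesis, reached 204 CPM in Arg1 barcodes and 43.6 CPM in comparison barcodes (2.23). Prdx1, a peroxidase, reached 1991 and 804 CPM (1.31). The remaining genes past 2-fold were Gclc, Slc11a1 and Txnrd1.

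The start sites of these genes are shown because genes of the lysosome and iron lists were higher together and a textbook motif exists for each list. In the RefSeq windows of GRCm38.p6, from 250 bases before to 50 bases after the start, CACGTG (the core of the site bound by lysosomal gene regulators of the TFEB family) was searched on both strands. So was TGACNNNGC, the core of the antioxidant response element bound by NRF2. A gene was counted when any of its windows held the motif. CACGTG lay in 8.09% of the 27025 genes with a window and in 5 of the 15 lysosome genes with a window (33.3%): Ctsa, Ctsd, Ctsl, Lamp1 and Lgmn. TGACNNNGC lay in 14.0% of all genes with a window and in 6 of the 15 iron and oxidative stress genes with a window (40%): Gclm, Mt2, Ncoa4, Prdx1, Srxn1 and Txnrd1. It also lay in 5 of the 15 lysosome genes, while CACGTG lay in 0 of the 15 iron genes. CACGTG lay in 3 of 11 arginine and polyamine genes with a window (27.3%). Of transcription factors of macrophage activation with a window, 3 of 16 held CACGTG (18.75%). It lay in 0 genes of the MHC class II, complement and interferon response lists. Lists with at most 1 gene higher at day 3 held TGACNNNGC too, in 33.3% of genes with a window each for MHC class II (2 of 6 genes), complement (3 of 9) and interferon response (3 of 9). TCATGTG, bound by the MITF family, and an NF-kB motif were searched too and lay in 4.31% and 0.466% of all genes with a window, in 4 and 0 of the 15 lysosome genes and in 2 and 0 of the 15 iron genes. A match is a description of the letters only. The windows of Ctsd (chr7:142387778-142388077, minus strand, 2 copies of CACGTG), Gclm (chr3:122245307-122245606, plus strand) and Prdx1 (chr4:116685349-116685648, plus strand) are printed 5′ to 3′ as the gene is read, with matches in capitals. In Ctsd the capitals mark CACGTG only, and its TGACNNNGC is left in lower case. In Gclm and Prdx1 they mark TGACNNNGC read on the opposite strand.
Ctsd: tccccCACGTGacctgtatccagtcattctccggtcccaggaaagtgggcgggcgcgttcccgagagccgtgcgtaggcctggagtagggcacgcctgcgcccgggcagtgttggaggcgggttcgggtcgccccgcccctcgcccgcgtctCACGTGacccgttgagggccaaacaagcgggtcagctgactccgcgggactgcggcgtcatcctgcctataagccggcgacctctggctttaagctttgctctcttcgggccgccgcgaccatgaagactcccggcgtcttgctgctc
Gclm: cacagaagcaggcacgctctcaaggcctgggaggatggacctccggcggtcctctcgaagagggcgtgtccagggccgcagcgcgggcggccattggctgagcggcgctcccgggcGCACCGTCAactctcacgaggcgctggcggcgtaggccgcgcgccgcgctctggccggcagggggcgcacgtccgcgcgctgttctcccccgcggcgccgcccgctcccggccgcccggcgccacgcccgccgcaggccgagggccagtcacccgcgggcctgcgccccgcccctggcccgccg
Prdx1: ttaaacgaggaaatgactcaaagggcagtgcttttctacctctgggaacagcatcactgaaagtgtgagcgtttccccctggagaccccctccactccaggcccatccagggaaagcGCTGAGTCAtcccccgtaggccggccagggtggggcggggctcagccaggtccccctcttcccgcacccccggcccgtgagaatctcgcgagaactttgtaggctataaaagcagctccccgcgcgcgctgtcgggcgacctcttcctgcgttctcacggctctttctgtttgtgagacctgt

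The highest ratio among genes of at least 50 CPM at day 3, apart from Arg1 itself, was that of Pf4 (ENSMUSG00000029373, chr5:90772435-90773383, plus strand), which encodes the chemokine platelet factor 4. Pf4 reached 4365 CPM in Arg1 barcodes and 142 CPM in comparison barcodes, a log2 ratio of 4.94 (4.69 to 5.19). The 8 highest ratios among genes of at least 50 CPM were those of Pf4, Rnf128, Fabp5, Gpnmb, Serpinb6a, Hmox1, Cd36 and F7. F7, which encodes coagulation factor VII, reached 76.3 CPM in Arg1 barcodes and 8.51 CPM in comparison barcodes (3.17). Rnf128, a ubiquitin ligase, reached 76.9 and 4.25 CPM (4.18, 2.79 to 6.07). Of the matrix and growth factor list, 4 of 20 measured genes were at least 2-fold higher (Adam8, Ecm1, Thbs1 and Timp2) and 6 lower (Hbegf, Mmp12, Pdgfb, Plau and Sparc among them), with a median log2 ratio of -0.05, which TMM scaling turned to 0.17. Thbs1, which encodes the secreted glycoprotein thrombospondin 1, reached 1389 CPM in Arg1 barcodes and 479 CPM in comparison barcodes (1.54). Of 12 measured hypoxia genes, 3 were at least 2-fold higher (Hilpda, Mif and Ndrg1) and 0 lower, and of 15 measured glycolysis genes 3 were higher (Hk3, Pfkl and Pkm) and 0 lower.

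Antigen presentation genes were the most uniformly lower group of day 3. All 7 measured genes of the 10 listed for MHC class II were at least 2-fold lower in Arg1 barcodes, with a median log2 ratio of -3.60. H2-Aa, a chain of the class II molecule that shows peptides to helper T cells, reached 168 CPM in Arg1 barcodes and 2409 CPM in comparison barcodes (-3.84). Cd74, the invariant chain that guides class II molecules through the cell, reached 408 and 4964 CPM (-3.60). Of 13 measured cell cycle genes, 11 were lower and 0 higher (median -2.27, and -2.64 to -0.77 over the alternatives); Top2a, the topoisomerase of dividing cells, reached 8.31 CPM in Arg1 barcodes and 51.1 CPM in comparison barcodes. Of 18 measured monocyte genes, 10 were lower and 0 higher (median -1.08), Ccr2 among them by the rule. Plac8, a gene of blood monocytes, reached 63.4 CPM in Arg1 barcodes and 692 CPM in comparison barcodes (-3.45), and Ly6c2, the surface antigen of inflammatory monocytes, 146 and 355 CPM (-1.28). Dendritic cells also carry class II genes, and barcodes that passed the dendritic cell list were more frequent among comparison barcodes, as given above.

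Inflammatory genes differed in both directions. Of 21 measured cytokine and chemokine genes at day 3, 2 were at least 2-fold higher in Arg1 barcodes (Ccl7 and Cxcl1) and 7 lower (Ccl12, Ccl4, Ccl5, Cxcl10, Il1a, Il1b and Nfkbiz), with a median log2 ratio of -0.61. Il1b, which encodes interleukin 1 beta, reached 185 CPM in Arg1 barcodes and 854 CPM in comparison barcodes (-2.20). Ccl7, a chemokine that attracts monocytes, reached 218 and 79.8 CPM (1.45). Of 14 measured interferon response genes, 6 were lower and 0 higher (median -0.73). Of 18 measured immediate early genes, 6 were lower and 0 higher (median -0.43). The chemokine receptor and adhesion list had 5 of 14 measured genes lower and 0 higher, Cx3cr1, the receptor for fractalkine, among them. The list of transcription factors of macrophage activation had 2 of 20 lower (Egr2 and Myc) and 0 higher. Scavenger and phagocytic receptors went both ways, with 5 of 21 higher (Cd163, Cd36, Clec4d, Olr1 and Stab1) and 3 lower (Axl, Clec4e and Trem1). Complement genes had 1 of 12 higher (C3ar1) and 2 lower (Itgax among them), and macrophage identity genes 1 of 17 higher (Cd68) and 0 lower.

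The other genes of alternative activation were not higher as a group in the Arg1 barcodes of day 3. Of 12 measured genes of the 22 listed, 1 was at least 2-fold higher in Arg1 barcodes (Cd163) and 2 lower (Chil3 and Egr2), with a median log2 ratio of -0.21, which TMM scaling turned to 0.01. Chil3, a chitinase-like protein that is a textbook marker of alternative activation, reached 578 CPM in Arg1 barcodes and 1452 CPM in comparison barcodes (-1.33). Chil3 is also in the monocyte list. Mrc1, the mannose receptor, reached 61.3 and 41.5 CPM (0.56), and Retnla, another textbook marker, was at 0 UMIs in both populations. Cd163, the receptor for hemoglobin bound to haptoglobin, reached 26.0 CPM in Arg1 barcodes and 1.06 CPM, from 1 UMI, in comparison barcodes (4.61, 2.07 to 9.94), but 32.0% of its UMIs in Arg1 barcodes came from 1 barcode. Among 14 measured genes of arginine and polyamine metabolism, Arg1 (by the rule) and Asl were at least 2-fold higher and Ass1 lower. Odc1, which turns ornithine into the first polyamine, reached 88.8 CPM in Arg1 barcodes and 85.1 CPM in comparison barcodes (log2 ratio 0.06, -0.33 to 0.46). Nos2, the inducible nitric oxide synthase, held 2 UMIs in all Arg1 barcodes and 0 in comparison barcodes.

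**Figure D2:**
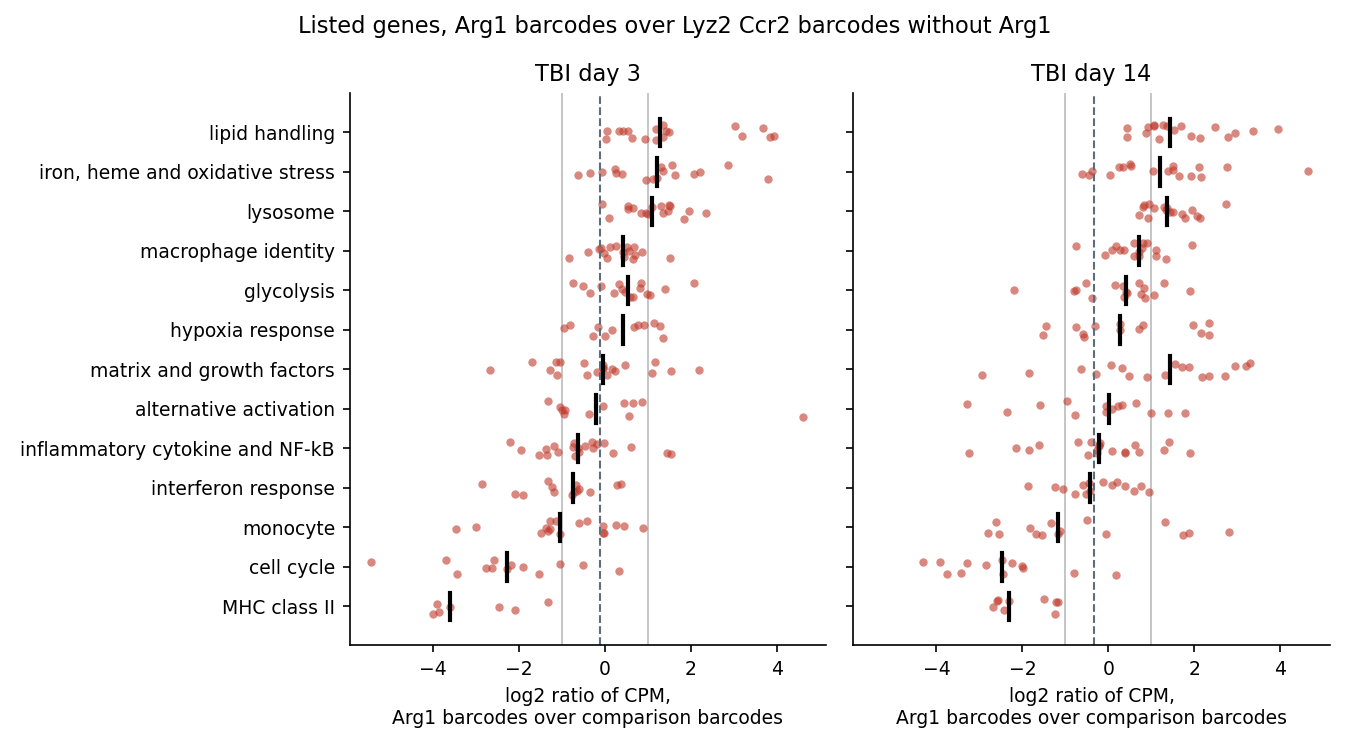
Log2 ratio of CPM, Arg1 barcodes over comparison barcodes, for measured genes of 13 gene lists at TBI day 3 and TBI day 14, the rule's genes Arg1, Lyz2 and Ccr2 left out; each point is 1 gene, black bars are list medians, the dashed line is the median of all measured genes and the grey lines mark 2-fold. Lipid, lysosome and iron genes lie mostly above 0 on both days, and MHC class II and cell cycle genes below it.

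The lipid, iron and class II contrasts were also visible in shares of barcodes at equal depth. Each barcode was thinned to 1000 UMIs, which kept 294 Arg1 barcodes and 169 comparison barcodes of day 3 and left out 1 comparison barcode. Gpnmb then had a UMI in 49.0% of Arg1 barcodes (43.1 to 54.8%) and 7.10% of comparison barcodes (3.72 to 12.1%), against 77.2% and 20.6% before thinning. In oligodendrocyte barcodes, which gauge free RNA but were chosen to lack Lyz2 and so may understate it, the thinned share was 1.15%. Hmox1 had a UMI in 65.0% of Arg1 barcodes, 20.7% of comparison barcodes and 4.62% of oligodendrocyte barcodes. Pf4 had one in 55.8% of Arg1 barcodes, 5.33% of comparison barcodes and 0.231% of oligodendrocyte barcodes. Most of these genes were therefore spread over many Arg1 barcodes rather than held by a few. Fabp5 was detected in 68.7% of Arg1 barcodes, 19.5% of comparison barcodes and in 34.4% of oligodendrocyte barcodes. Oligodendrocyte barcodes are no gauge of free RNA for Fabp5, since in the sham library 51.3% of them held it at a median of 1242 UMIs, against 10.5% of microglia receptor barcodes at a median of 818 UMIs. Hmox1, before thinning, was held by 8.21% of sham oligodendrocyte barcodes and 21.5% of sham microglia receptor barcodes. Whether its share in oligodendrocyte barcodes is free RNA was not tested. H2-Aa was detected in 6.12% of Arg1 barcodes (3.67 to 9.50%) and 37.3% of comparison barcodes (30.0 to 45.0%). Chil3 was detected in 23.1% of Arg1 barcodes (18.4 to 28.4%) and 28.4% of comparison barcodes (21.7 to 35.8%), intervals that overlap. Mki67, a gene of dividing cells, was detected in 1.36% of Arg1 barcodes (0.372 to 3.45%) and 1.78% of comparison barcodes (0.368 to 5.10%), so the lower cell cycle RNA was not detectable in it at this depth.

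**Figure D3:**
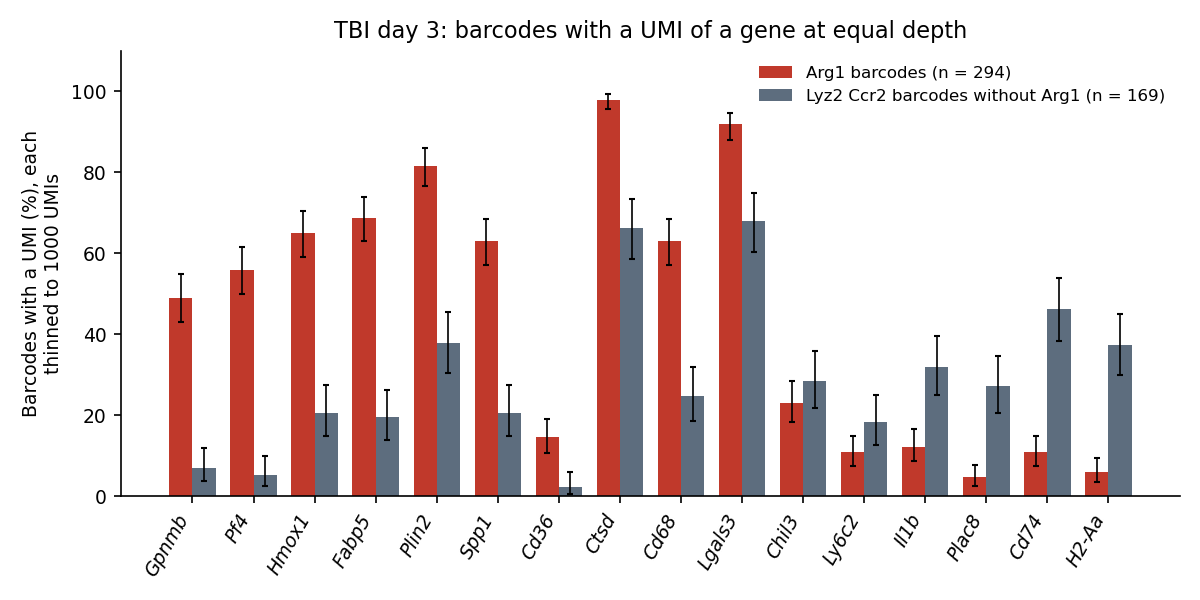
Percent of barcodes with at least 1 UMI of each of 16 genes at TBI day 3 after thinning to 1000 UMIs, in Arg1 barcodes (n = 294, left bar of each pair) and comparison barcodes (n = 169, right bar), with exact 95% binomial intervals. Gpnmb, Pf4 and Hmox1 stand higher in Arg1 barcodes, and H2-Aa and Plac8 in comparison barcodes.

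Within day 3, levels of the named genes differed with the number of Arg1 UMIs per barcode. Barcodes with Lyz2 and without Tmem119, P2ry12 and Cd3e were sorted into those with 0, 1, 2, 3 to 5, 6 to 15 and 16 or more Arg1 UMIs, which held 886, 56, 35, 61, 113 and 85 barcodes. Hmox1 reached 630 CPM in the class with 0, then 1078, 1885, 2668, 3731 and 4648 CPM. Pf4 reached 347, 1272, 933, 3425, 4629 and 5677 CPM in the same order, and Cd36 30.9, 122, 133, 161, 216 and 354 CPM. Hmox1 was thus higher in each class than in the one before it. Cd36 followed the same order, but its intervals overlapped between neighbouring classes from 1 to 15 Arg1 UMIs. Gpnmb, at 339, 1098, 1443, 1183, 1060.2 and 1495 CPM, showed no such order once a barcode held any Arg1. H2-Aa reached 704, 564, 181, 377, 209 and 8.95 CPM. C1qa, a complement gene of mature macrophages, reached 1826, 1859, 1447, 1025, 1019 and 758 CPM. The barcodes just outside the rule, with 1 Arg1 UMI, were set against those with 2 and those with 0 by difference in CPM. They were nearer to those with 2 for genes such as Gpnmb, Cd36, Pf4, Ctsd, Apoe and Ecm1. They were nearer to those with 0 for genes such as Hmox1, Spp1, Fabp5, Lgals3, H2-Aa and C1qa. By ratio instead of difference, Spp1, Fabp5 and Lgals3 were nearer to those with 2. Spp1 reached 1168 CPM with 0 Arg1 UMIs, 2410 CPM with 1 and 4661 CPM with 2. The class with 0 is mixed. It joins 109 comparison barcodes with barcodes that hold Lyz2 but neither Arg1 nor Ccr2, and the latter carried RNA of other cells, such as the choroid plexus gene Ttr at 6063 CPM. The classes also differ in depth, with median UMIs of 3724, 4949, 5820, 5591, 5458 and 7578. The part of depth and of other cells in these levels was not tested.

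**Figure D4:**
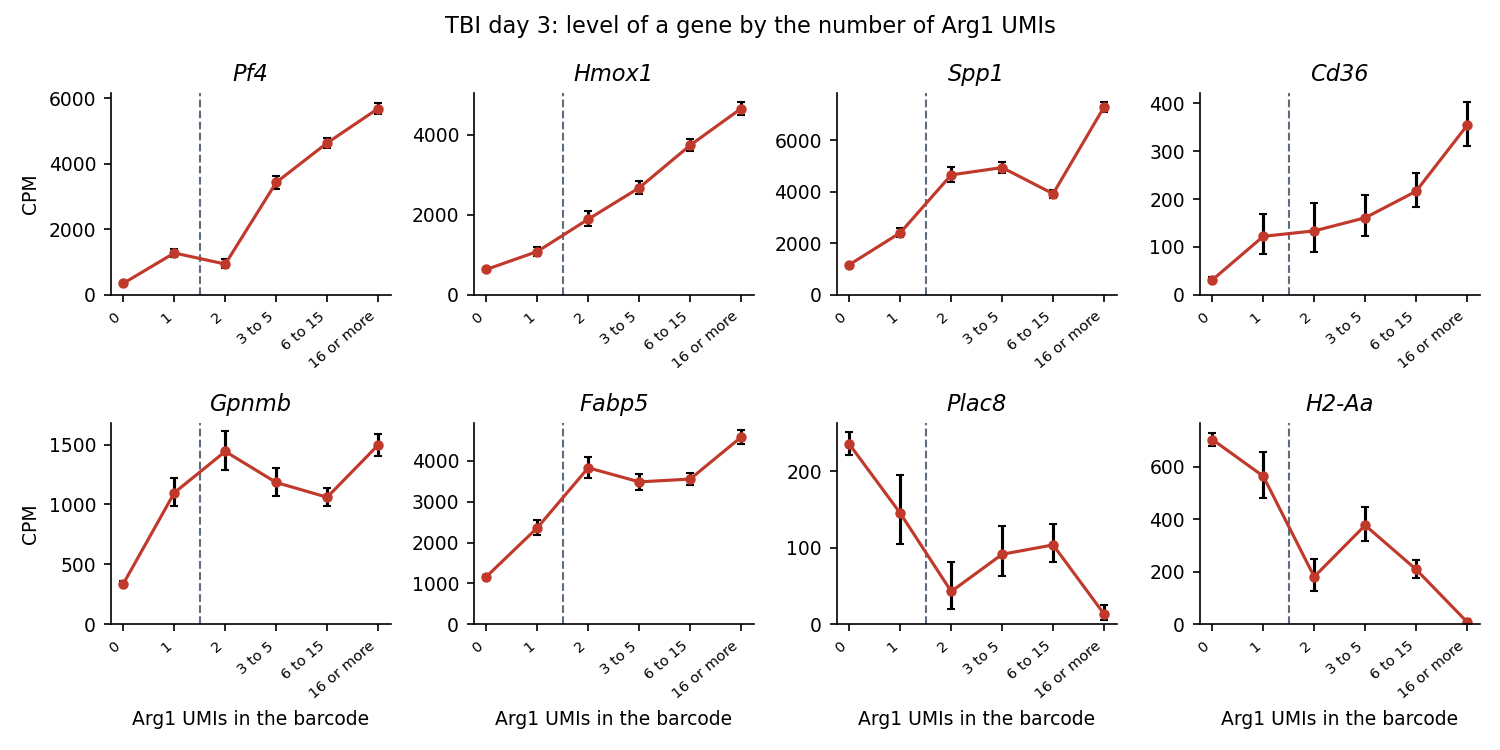
CPM (linear axes that start at 0, with exact Poisson 95% intervals) of 8 named genes at TBI day 3 by the number of Arg1 UMIs per barcode, in barcodes with Lyz2 and without Tmem119, P2ry12 and Cd3e; the dashed line marks the rule's threshold of 2. Hmox1 reaches 630 CPM in the class with 0 Arg1 UMIs and 4648 CPM in the class with 16 or more, and H2-Aa 704 and 8.95 CPM. The class with 0 also holds barcodes with RNA of other cells.

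The Arg1 barcodes of day 3 were not uniform in what they carried together. After thinning, 144 of the 294 had a Gpnmb UMI. Hmox1 was detected in 84.0% of those 144 (77 to 90%) and in 46.7% of the 150 without Gpnmb (38 to 55%). Pf4 was detected in 66.7% with Gpnmb and 45.3% without. H2-Aa went the other way, in 2.08% with Gpnmb and 10.0% without. Ccr2 was detected in 0 of the 144 with Gpnmb and in 7 of the 150 without. Gpnmb, Hmox1 and Pf4 thus lay together in the same barcodes more than class II and Ccr2 did with Gpnmb. Chil3 (20.8% and 25.3%), Ly6c2 (10.4% and 11.3%) and Mrc1 (4.86% and 5.33%) were detected at similar shares with and without Gpnmb.

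Some groups depended on the choice of comparison barcodes and others did not. Against the 109 comparison barcodes of day 3 with 0 UMIs of Tmem119, P2ry12 and Cd3e, 438 of 7141 measured genes (6.13%) were at least 2-fold higher in Arg1 barcodes and 635 (8.89%) lower. There, 13 of 18 lipid genes, 12 of 17 lysosome genes and 11 of 17 iron genes were higher, and all 7 class II genes lower. The matrix list then had 4 of 19 genes higher and 0 lower, and the inflammatory list 2 of 21 higher and 2 lower, so the lower genes of these lists depended on the comparison. Against barcodes with Lyz2 but neither Arg1 nor Ccr2, 301 of 8138 measured genes (3.7%) were higher and 1806 (22.2%) lower. That population also held RNA of other cells: Ttr, a gene of the choroid plexus, reached 54.5 CPM in Arg1 barcodes and 6063 CPM there (-6.80), and the neutrophil gene Retnlg 0 and 67.7 CPM. The part of these cells in the list values was not tested. Lipid genes kept their direction there, with 10 of 18 higher and a median log2 ratio of 1.10, and lysosome genes had 6 of 17 higher. Iron genes were split, with 5 higher and 4 lower of 18. Monocyte genes turned to the other side, with 5 higher and 2 lower of 18 (median 0.66), and alternative activation genes had 4 higher and 1 lower of 12 (median 0.59). Hmox1 remained 2.42 and Pf4 3.50 higher in Arg1 barcodes on the log2 scale in that comparison.

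Barcodes with Arg1 that the rule set aside for Tmem119 or P2ry12 differed from the Arg1 barcodes in few genes of the main groups. At day 3, against 122 such barcodes, 57 of 7267 measured genes (0.784%) were at least 2-fold higher in Arg1 barcodes and 420 (5.78%) lower. Of the lipid genes 1 of 18 was higher, of the lysosome and iron genes 0 of 17 each, and 0 of the class II genes passed 2-fold in either direction. Cell cycle genes were lower in Arg1 barcodes, 11 of 14 (median -1.99). The lowest were genes of fibroblasts and membranes of the brain: Prg4, which encodes a lubricating proteoglycan, reached 0.519 CPM in Arg1 barcodes, from 1 UMI, and 333 CPM in those set aside, a log2 ratio of -9.33 (-14.63 to -6.84). The collagen genes Col3a1 and Col1a1 had log2 ratios of -7.30 (-12.62 to -4.79) and -6.60 (-9.66 to -4.71). At day 14, against 93 such barcodes, 124 of 6932 measured genes (1.79%) were higher in Arg1 barcodes and 269 (3.88%) lower. Hmox1 reached 1565 CPM in Arg1 barcodes and 327 CPM in those set aside, a log2 ratio of 2.26, or 1.45 without the Arg1 barcode that held most of it. Slc40a1, the iron exporter ferroportin, reached 90.7 and 20.1 CPM (2.17), but 66.7% of its UMIs in Arg1 barcodes came from 1 barcode, and the ratio was 0.62 without it.

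At day 14 the 33 Arg1 barcodes again carried more lipid, lysosome and iron RNA and less class II RNA than the 1648 comparison barcodes. This comparison has fewer than 50 Arg1 barcodes, and single barcodes weigh on it. Of 7794 measured genes, 361 (4.63%) were at least 2-fold higher in Arg1 barcodes and 1628 (20.9%) lower, with a median log2 ratio of -0.34. With TMM scaling, which added 0.28, the counts were 614 higher and 1135 lower. Of 18 measured lipid genes 14 were higher and 0 lower (median 1.44), of 17 lysosome genes 12 higher (1.36), and of 18 iron genes 10 higher (1.20). The iron median was the least stable of these, at 0.30 against comparison barcodes not chosen for Ccr2. It was 0.08 with barcodes that carry markers of other classes or of dendritic cells left out. That setting, in which comparison barcodes also lack Tmem119, P2ry12 and Cd3e, kept 10 Arg1 barcodes and 94 comparison barcodes. Gpnmb reached 2796 CPM in Arg1 barcodes and 270.5 CPM in comparison barcodes, a log2 ratio of 3.37 (3.29 to 3.45), and 3.30 without the barcode that held most of it. Hmox1 reached 1565 and 62.7 CPM (4.64), but 45.2% of its UMIs came from 1 barcode, and the ratio was 3.84 without it. Fabp5 reached 4957 and 641 CPM (2.95), and F7 104 and 2.83 CPM (5.20). Apoe reached 97200.2 CPM in Arg1 barcodes and 30050.2 CPM in comparison barcodes (1.69).

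The ratios of matrix genes to comparison barcodes stood higher at day 14 than at day 3, a difference that was not tested. Of 18 measured matrix and growth factor genes, 10 were at least 2-fold higher in the Arg1 barcodes of day 14 and 2 lower. The median log2 ratio was 1.43, and ran from 0.46 to 1.85 over the alternatives, against -0.17 to 0.42 at day 3. Within Arg1 barcodes matrix RNA did not rise: from day 3 to day 14, 4 of 18 measured genes were higher and 7 lower (median -0.65). In comparison barcodes 4 of 21 were higher and 12 lower (median -1.43). Ecm1, which encodes an extracellular matrix protein, reached 265 CPM in Arg1 barcodes and 34.3 CPM in comparison barcodes (2.95). Thbs1 reached 169.6 and 25.8 CPM (2.72). Mmp12, the macrophage elastase, reached 180 and 19.6 CPM (3.20), but 72.0% of its UMIs came from 1 barcode, and the ratio was 1.46 without it. Of 18 measured scavenger receptor genes 9 were higher. All 9 measured class II genes were lower in Arg1 barcodes (median -2.32). H2-Aa reached 771 CPM in Arg1 barcodes and 4145 CPM in comparison barcodes (-2.43), and -3.38 without the Arg1 barcode that held 51.2% of it. The lowest ratios of day 14 were those of lymphocyte genes, such as Cd3g of the T cell receptor complex at 1.68 CPM in Arg1 barcodes, from 1 UMI, and 397 CPM in comparison barcodes (-7.89, -13.19 to -5.41). Against the 397 comparison barcodes without Tmem119, P2ry12 and Cd3e, 382 of 7582 measured genes (5.04%) were higher and 1281 (16.9%) lower.

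Some genes stood apart on both days. Those with the highest ratio on their weaker day were Hmox1, Gpnmb, Pf4, F7, Fabp5, Cd36, Adam8, Il18bp, Mgst1 and Vat1. Il18bp, which encodes a secreted inhibitor of interleukin 18, had log2 ratios of 2.74 at day 3 and 2.08 at day 14. Mgst1, a glutathione transferase of membranes, had 2.07 and 3.08. The 10 lowest on both days included H2-Aa, H2-Ab1, H2-Eb1, Plac8, Ifitm1, Top2a and Stmn1. Of 6650 genes measured on both days, 117 were at least 2-fold higher in Arg1 barcodes on both, which is 43.3% of those of day 3 and 38.6% of those of day 14. At day 14, 303 of the 6650 were higher in all, and 19 of the genes higher at day 3 were lower. A further 245 were lower on both, 50.1% of those of day 3 and 21.8% of those of day 14. At day 14, 1126 of the 6650 were lower in all, and 6 of the genes lower at day 3 were higher. The days share no barcodes, but on both days the same rule chose the populations.

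At day 1 the 18 Arg1 barcodes carried more inflammatory and hypoxia RNA than the comparison barcodes. They were set against 14 comparison barcodes, and 1 UMI was worth 21.1 CPM in Arg1 barcodes and 31.0 CPM in comparison barcodes, so values are coarse. Of 4902 measured genes, 790 (16.1%) were at least 2-fold higher in Arg1 barcodes and 1020 (20.8%) lower. Of 20 measured inflammatory genes 11 were higher and 4 lower (median 1.20). Cxcl2, a chemokine that attracts neutrophils, reached 7139 CPM in Arg1 barcodes and 279 CPM in comparison barcodes, a log2 ratio of 4.68 (3.74 to 5.82). Ccl7 held 102 UMIs in Arg1 barcodes and 0 in comparison barcodes, at least 4.53 higher on the log2 scale when the comparison sum is set to 3 UMIs, and Ptgs2, the inducible cyclooxygenase, reached 969 and 62.0 CPM (3.97). Of 15 measured hypoxia genes 9 were higher and 0 lower; Vegfa, the vascular growth factor, reached 779 CPM in Arg1 barcodes and 155 CPM in comparison barcodes. Lipid genes were divided, with 5 higher and 3 lower of 14, and so were iron genes, with 6 higher and 4 lower of 14. Retnla held no UMI in Arg1 barcodes and 3626 CPM in comparison barcodes. The neutrophil genes S100a8 and S100a9 were also lower in Arg1 barcodes, S100a8 at 168 and 3316 CPM.

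Between day 1 and day 3 the Arg1 barcodes held less inflammatory RNA and more lysosome, lipid and iron RNA. Of 7252 measured genes, 518 (7.14%) were at least 2-fold higher at day 3 than at day 1 and 3122 (43.1%) lower, with a median log2 ratio of -0.76. TMM scaling added 0.78 and gave 1572 higher and 1860 lower. The counts are also uneven by construction, since 1 UMI in the 18 barcodes of day 1 was worth 21.1 CPM. A single UMI at day 1 therefore made a gene measured, and without the filter on low values the counts were the same, 518 and 3122. A sum of 0 at day 1 was set to 3 UMIs, so few genes absent there could count as higher at day 3. The part of this in the excess of lower genes was not tested. Of 22 measured inflammatory genes 20 were lower at day 3 and 0 higher (median -2.37). Cxcl2 reached 7139 CPM at day 1, 1391 CPM at day 3 and 178 CPM at day 14, and Ccl2, the ligand of CCR2, 4296, 729 and 111 CPM. Il1b reached 2127, 185 and 85.6 CPM. Interferon genes were lower at day 3 too, 13 of 14 with 0 higher (median -1.91), and in comparison barcodes 10 of 13 with 0 higher (median -1.58). Cxcl2, Ccl2 and Il1b were thus highest at day 1 and lowest at day 14 in Arg1 barcodes. In comparison barcodes Il1b was at 775, 854 and 261 CPM. It was lowest at day 14 there too. The order of day 1 and day 3 is not resolved there, since the 14 comparison barcodes of day 1 make 1 UMI worth 31.0 CPM. Of 16 measured lysosome genes 10 were higher at day 3 than at day 1 and 0 lower (median 1.30), of 17 lipid genes 8 higher and 1 lower, and of 16 iron genes 8 higher and 3 lower. Gpnmb reached 42.1 CPM at day 1, from 2 UMIs, and 1276 CPM at day 3 (log2 ratio of day 3 over day 1 4.92, 3.07 to 7.97).

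Between day 3 and day 14 the Arg1 barcodes held more class II, interferon response and complement RNA and less heme oxygenase. Of 6957 measured genes, 697 (10%) were at least 2-fold higher at day 14 than at day 3 and 1010 (14.5%) lower, with a median log2 ratio of -0.15. Of 8 measured class II genes 7 were higher at day 14 and 0 lower (median 2.06), and of 15 interferon genes 10 higher and 0 lower (median 2.38). H2-Aa reached 337 CPM at day 1, 168 CPM at day 3 and 771 CPM at day 14 in Arg1 barcodes. Few barcodes carried the day 14 level: 381 of its 459 UMIs lay in the 11 Arg1 barcodes with 3 to 5 Arg1 UMIs, and the 9 with 6 to 15 and the 3 with 16 or more were at 43.8 and 38.7 CPM. In comparison barcodes it reached 992, 2409 and 4145 CPM, so H2-Aa was lower in Arg1 barcodes on each of these days. Isg15, an interferon-induced modifier protein, reached 463 CPM at day 1, 29.6 CPM at day 3 and 154.5 CPM at day 14 in Arg1 barcodes. C1qa reached 295, 976 and 4430 CPM on these days. Interferon genes were also higher at day 14 in comparison barcodes, 11 of 15 (median 1.25). Hmox1 reached 400.1, 3649.6 and 1565 CPM in Arg1 barcodes, and 124, 263 and 62.7 CPM in comparison barcodes. Hmox1 was thus highest at day 3 in Arg1 barcodes. In comparison barcodes the order of day 1 and day 3 is not resolved, since 1 UMI at day 1 was worth 31.0 CPM there. In Arg1 barcodes 6 of 18 iron genes were lower at day 14 than at day 3, with 3 higher. Apoe reached 4064, 27607.0 and 97200.2 CPM in Arg1 barcodes and 5485, 10344 and 30050.2 CPM in comparison barcodes, so both held the most Apoe at day 14. Some of the largest differences between day 3 and day 14 were in genes of other cells: Igkc, an antibody light chain, and Hbb-bs, a globin, had log2 ratios of 9.02 and 6.65 in Arg1 barcodes and 12.27 and 7.51 in comparison barcodes, and the astrocyte genes Slc1a3 and Clu -6.15 and -4.91 in Arg1 barcodes.

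**Figure D5:**
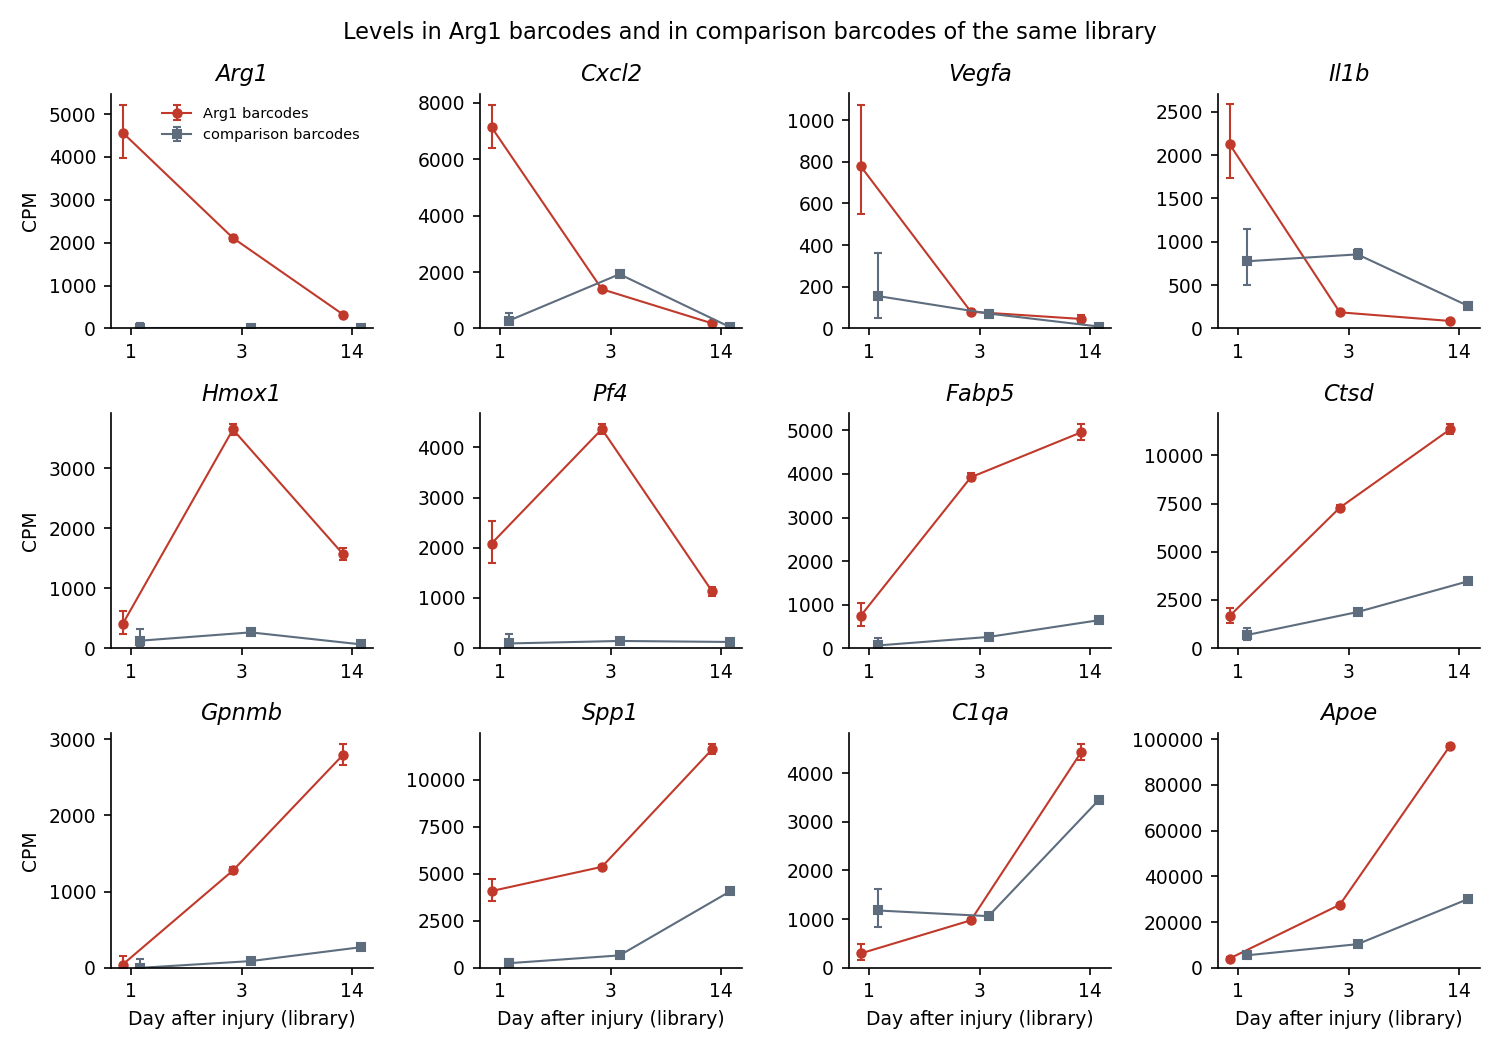
CPM (linear axes that start at 0) of 12 named genes at TBI day 1, 3 and 14 in Arg1 barcodes (red circles) and comparison barcodes (grey squares), with the days evenly spaced; each point is the UMI sum of 1 population of 1 library, with its exact Poisson 95% interval. In Arg1 barcodes Il1b is highest at day 1 (2127 CPM), Hmox1 at day 3 (3649.6 CPM) and Gpnmb at day 14 (2796 CPM).

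Alkbh5 and Socs3, named in the study's title, differed by less than 2-fold between Arg1 and comparison barcodes at day 3 and day 14. At day 1 Alkbh5 rested on 5 UMIs in Arg1 barcodes and 1 in comparison barcodes (log2 ratio 1.76, -1.40 to 7.33), and Socs3 had a log2 ratio of -1.02 (-2.04 to -0.02). Alkbh5, which encodes an RNA demethylase that removes the N6-methyladenosine mark, reached 91.9 CPM in Arg1 barcodes and 98.9 CPM in comparison barcodes at day 3, a log2 ratio of -0.11 (-0.48 to 0.27). At day 14 it reached 57.1 and 66.9 CPM (-0.23, -0.77 to 0.26). Both intervals include 0. Socs3, an inhibitor of cytokine signalling through STAT3, reached 202 CPM in Arg1 barcodes and 268 CPM in comparison barcodes at day 3 (-0.41, -0.64 to -0.17) and 65.5 and 105 CPM at day 14 (-0.69, -1.18 to -0.23). With TMM scaling these ratios move up by 0.22 and 0.28, which turns those of Alkbh5 positive. Socs3 at day 14 ran from -1.60 to 0.30 over the alternatives, and was positive against comparison barcodes not chosen for Ccr2. Stat3, the transcription factor downstream of several cytokine receptors, reached 76.9 and 104 CPM at day 3 (-0.44). Across days Socs3 reached 337, 202 and 65.5 CPM at day 1, 3 and 14 in Arg1 barcodes and 682, 268 and 105 CPM in comparison barcodes, and so was lower on each later day in both. Of 16 measured genes of RNA methylation and JAK-STAT signalling at day 3, 0 were at least 2-fold higher in Arg1 barcodes and 1 was lower (Mettl14).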

How the data were processed

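The deposited files are UMI count matrices per gene and barcode, 1 per library, made by the authors with Cell Ranger 4.0.0, per the file headers. Seurat 3.2.0, STAR 2.5.37 and 2 builds, mm10 and GRCm38, are listed in the submitters' processing notes. The lowest deposited barcodes held about 500 UMIs. The counts cover 55450 genes. UMIs were summed per population and library and divided by the population's total. Log2 ratios have exact conditional binomial intervals, and shares have Clopper-Pearson intervals. A count of 0 was set to a floor of 3 UMIs, which gives a bound. Genes named are the 8 highest and 8 lowest ratios at 50 CPM or more per library, the 10 with the best weaker ratio over both days, list genes at 50 CPM or more, and the rule's genes. Genes named outside this rule were chosen after their values were seen. The members, the 20 gene lists and the marker lists were chosen with earlier results of these data known. Python 3.11.15, numpy 2.4.6, scipy 1.17.1, pandas 2.3.3, scanpy 1.11.5 (Scrublet) and edgeR 4.0.16 (TMM only) were used, and intervals were tested on simulated data. Alternatives covered scaling, filters on low values, depth, doublets and the comparison barcodes. Some listed genes count in the lists but are not reported by name here. The single Arg1 barcode of day 7 entered no comparison.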

Additional observations from a re-analysis of the deposited data

Results flagged for a closer look

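Some genes of the lists were at least 2-fold higher in Arg1 barcodes than in comparison barcodes on 1 day and at least 2-fold lower on the other. The difference between the days was not tested. Ndrg1 had a log2 ratio of 1.36 at day 3 and -1.46 at day 14, and Mobp had 1.34 and -2.71. Hp had -1.28 at day 3 and 1.32 at day 14, Clec4e -1.03 and 1.73, and Mmp12 -1.28 and 3.20. The Mmp12 level at day 3 was 14.0 CPM in Arg1 barcodes and 34.0 CPM in comparison barcodes, and at day 14 it was 180 and 19.6 CPM.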

How the results depend on the processing

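No paired analysis was possible because each group is 1 library. The share of Arg1 barcodes at day 3 (2.98%) was 3.54% with at least 1 Arg1 UMI, 2.62% with at least 3, 4.22% without the condition on Tmem119, P2ry12 and Cd3e, and 1.92% after thinning. At day 7 it was 0.0486%, 0 and 0.0890% under the first 3 of these. At day 14 it was 0.653% with at least 1 Arg1 UMI, 1.11% without the condition and 0.103% after thinning. The counts of genes at day 3 (297 higher, 639 lower) became 521 higher with TMM scaling and 513 with median-of-ratios scaling. Without a filter on low values they were 780 higher and 3094 lower, and at 50 CPM or more, where fewer genes are tested, 111 and 118. Leaving out barcodes with markers of other classes or of dendritic cells, with comparison barcodes that lack Tmem119, P2ry12 and Cd3e, gave 582 higher. Comparison barcodes not chosen for Ccr2 gave 1585 lower. From day 1 to day 3, Arg1 barcodes had 1572 genes higher and 1860 lower with TMM scaling and 1552 and 1930 with median-of-ratios scaling, against 518 and 3122. Thinned to 2000 UMIs at day 3, Gpnmb was detected in 63.7% of Arg1 barcodes and 13% of comparison barcodes, Hmox1 in 73.3% and 30.2%, Ccr2 in 5.48% and 59.8%, and Pf4 in 65.8% of Arg1 barcodes. Against comparison barcodes not chosen for Ccr2, the direction turned for Ly6c2 (0.22) and the monocyte median (0.16) at day 3 and for Cx3cr1 (0.71), Isg15 (0.13) and Socs3 (0.30) at day 14. Mki67 turned to 0.91 at day 3 with the barcodes of other classes left out. Apart from fewer genes tested and fewer UMIs, the cause was not tested. Over 13 settings at day 3 the lipid median ran from 1.13 to 1.49, the lysosome median from 0.80 to 1.32, the iron median from 0.53 to 1.46, the cell cycle median from -2.64 to -0.77 and the class II median from -4.16 to -1.83. At day 14 the lipid median ran from 1.15 to 1.99, the lysosome median from 1.09 to 1.78, the iron median from 0.08 to 1.53 and the class II median from -3.82 to -1.30. The combined marker filter and the comparisons of day 1 and day 14, which hold under 50 Arg1 barcodes, were chosen after seeing the data. Counts of 18 and 33 barcodes limit what day 1 and day 14 can show, and 1 library per day leaves the spread between mice unknown.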
